A study of Drosophila melanogaster with 6 samples.

Results

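String (stg), the Cdc25 phosphatase that triggers mitosis in most fly cells, was followed together with 8 other genes of the switch from G2 into mitosis. The 9 genes were taken by symbol from the 14233 genes of the deposited count table: the Cdc25 phosphatases stg and twe, the kinase gene Cdk1, the mitotic cyclins CycA, CycB and CycB3, and the inhibitors Myt1, trbl and fzr. The symbol column held 7 of them under these names. Cdk1 and fzr stand there under the older symbols cdc2 and rap and were found by gene identifier. All 9 had enough counts to be tested.

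The libraries were made from the wing imaginal disc of Drosophila larvae, the sheet of epithelial cells from which the wing and the back of the thorax develop. One group of 3 libraries came from larvae with Ap>Gal4, myrT, RasV12 and TubGal80ts, where RasV12 is the small GTPase Ras locked in its active state. The other group of 3 came from larvae with Ap>Gal4, myrT, GFP-i and TubGal80ts, and the labels do not spell out what GFP-i is. Both groups thus share the apterous driver, which is active in the dorsal compartment of the disc, the membrane-bound red fluorescent label used for sorting, and the temperature-sensitive Gal80. Larvae of both groups grew for 6 days at 18 °C, with Gal80 active, and then for 3 days at 29 °C before discs of wandering larvae were dissected. Labelled dorsal cells were sorted, about 150000 per library, and their RNA was read from the 3' end of transcripts. Whether replicates are separate batches of larvae is not in the labels, and p-values therefore measure only the spread between these libraries, which may be technical. In sorted bulk samples, a smaller share of cells that express a gene and less RNA per cell cannot be told apart, and neither can a change in the share of cells in G2 and a change in transcription within G2 cells.

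Entry into mitosis depends on the kinase Cdk1 bound to a mitotic cyclin. While the cell is in G2 the kinases Wee1 and Myt1 hold this complex inactive by phosphorylating Cdk1, and a Cdc25 phosphatase removes those phosphates. In imaginal discs String is the limiting phosphatase, and its level is set both by transcription of stg and by breakdown of the protein, which the pseudokinase Tribbles promotes. After mitosis the anaphase-promoting complex (APC/C), guided in G1 by Fizzy-related (fzr, the fly Cdh1), destroys the mitotic cyclins.

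Totals ran from 11070295 to 15581752 counts per library, so that 3 counts, taken as the floor, equalled 0.193 to 0.271 CPM, the counts after division by library depth, counting error only. Ras85D, the fly Ras gene from which the RasV12 transgene derives, had 54.2, 79.9 and 57.6 CPM in RasV12, against 41.2, 38.9 and 41.2 CPM in GFP-i; reads from the 3' end may not cover the transgene. The dorsal selector ap was present in every library, at 207 to 267 CPM in RasV12, against 227 to 308 CPM in GFP-i. In a principal component analysis the first component (59.4% of the variance) separated the groups. The second (21.8%) set RasV12 replicate 2 and GFP-i replicate 1 at one end and RasV12 replicate 3 and GFP-i replicate 2 at the other. Gene levels, those of Ras85D and ap above included, are CPM after TMM scaling, which corrects for composition differences between libraries. Fold changes are log2 of RasV12 over GFP-i, tested with edgeR's quasi-likelihood test with Benjamini-Hochberg adjustment over the 9134 tested genes and a threshold of 0.05. Of these genes 14.8% changed, 836 higher and 519 lower in RasV12. When libraries were scaled by their size alone, 615 genes were higher and 911 lower, and the median over all genes moved to -0.14, against 0.017 with TMM. Leaving out RasV12 replicate 1 gave 846 changed genes and leaving out GFP-i replicate 3 gave 741, where all libraries gave 1355.

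Of the 9 genes, stg alone passed the test, and it was lower in RasV12 cells. That is 1 of 9 genes (11.1%) beside a background of 5.68% of tested genes lower and 14.8% changed either way, so the share among the 9 is near the background and the result concerns stg itself. At an unadjusted p under 0.05 there were 3 of the 9, stg, twe and trbl, beside 28.3% of all tested genes. The median log2 fold change of the 9 was -0.26, against 0.017 over all tested genes, and 8 of the 9 values were negative, trbl being the exception, beside 48.3% of all tested genes.

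The gene stg (FBgn0003525; 3R:29251826-29255800, minus strand, dm6) has 2 annotated transcripts and 752 bases of annotated 3' UTR, and no other gene in the table overlaps it. Its level was 439.9, 370.5 and 365 CPM in RasV12 replicates 1, 2 and 3, against 778, 907 and 856 CPM in GFP-i replicates 1, 2 and 3. Every RasV12 library was lower than every GFP-i library, and the highest RasV12 value was well under the lowest GFP-i value. The mean was 392 ± 41.9 CPM in RasV12, against 847 ± 65.1 CPM in GFP-i (SD over 3 libraries each), a spread of 10.7% and 7.69% of the mean. stg fell by 1.11 ± 0.13 on the log2 scale (SE; edgeR adjusted p = 3.1e-04), which leaves 46.2% of the GFP-i level with a 95% interval of 38.0% to 56.2%. The counts behind these values ran from 3953 to 15392 per library, so counting error was at most 1.59% of a value, well under the spread between replicates. Of the 519 genes that fell, 220, stg itself among them, fell by at least the amount of stg. By p stg ranked 160th among all tested genes. In the authors' deposited table stg had an unshrunken log2 fold change of -1.15 and an adjusted p of 1.6e-12, and it was called lower.

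The other Cdc25 gene, twe (FBgn0002673; 2L:16259414-16261877, minus strand), is known for its roles in meiosis and in the early embryo. It was read at low level, 1.81, 2.53 and 3.05 CPM in RasV12, against 4.51, 4.24 and 5.21 CPM in GFP-i. The groups did not overlap, with the RasV12 libraries lower. Groups did not overlap for 33.6% of all tested genes, 15.1% with RasV12 lower, and for 3 of the 9 genes (stg, twe and trbl). The log2 fold change, -0.91 ± 0.29 (SE over 3 libraries per group), did not pass (edgeR adjusted p = 0.066), and its 95% interval ran from -1.57 to -0.26. These values rest on 25 to 72 counts per library, and counting error alone was 20.0% at the lowest count. With scaling by library size only, twe passed at -1.07 (edgeR adjusted p = 0.036). The 3' end of twe meets that of EndoGI on the other strand, with 98 shared exonic bases, and EndoGI had 2364 counts over the 6 libraries against 297 for twe. EndoGI had 34.7 ± 3.54 CPM in RasV12, against 24.0 ± 3.75 CPM in GFP-i (SD over 3 libraries). The sources used here do not give the strand setting of the counting, and the twe value is uncertain. Of 8 markers of the male germ line, where twe acts in meiosis, can, aly, comr and sa did not exceed 3 counts in any library. Mst87F reached 10 counts in RasV12 and 5 in GFP-i. The other markers, vas, bam and topi, were tested and did not pass; bam was the highest, at 6.53 to 9.37 CPM in RasV12, against 5.59 to 6.24 CPM in GFP-i, and vas and topi stayed under 3 CPM. The part of such cells in the twe value was not tested.

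**Figure D1:**
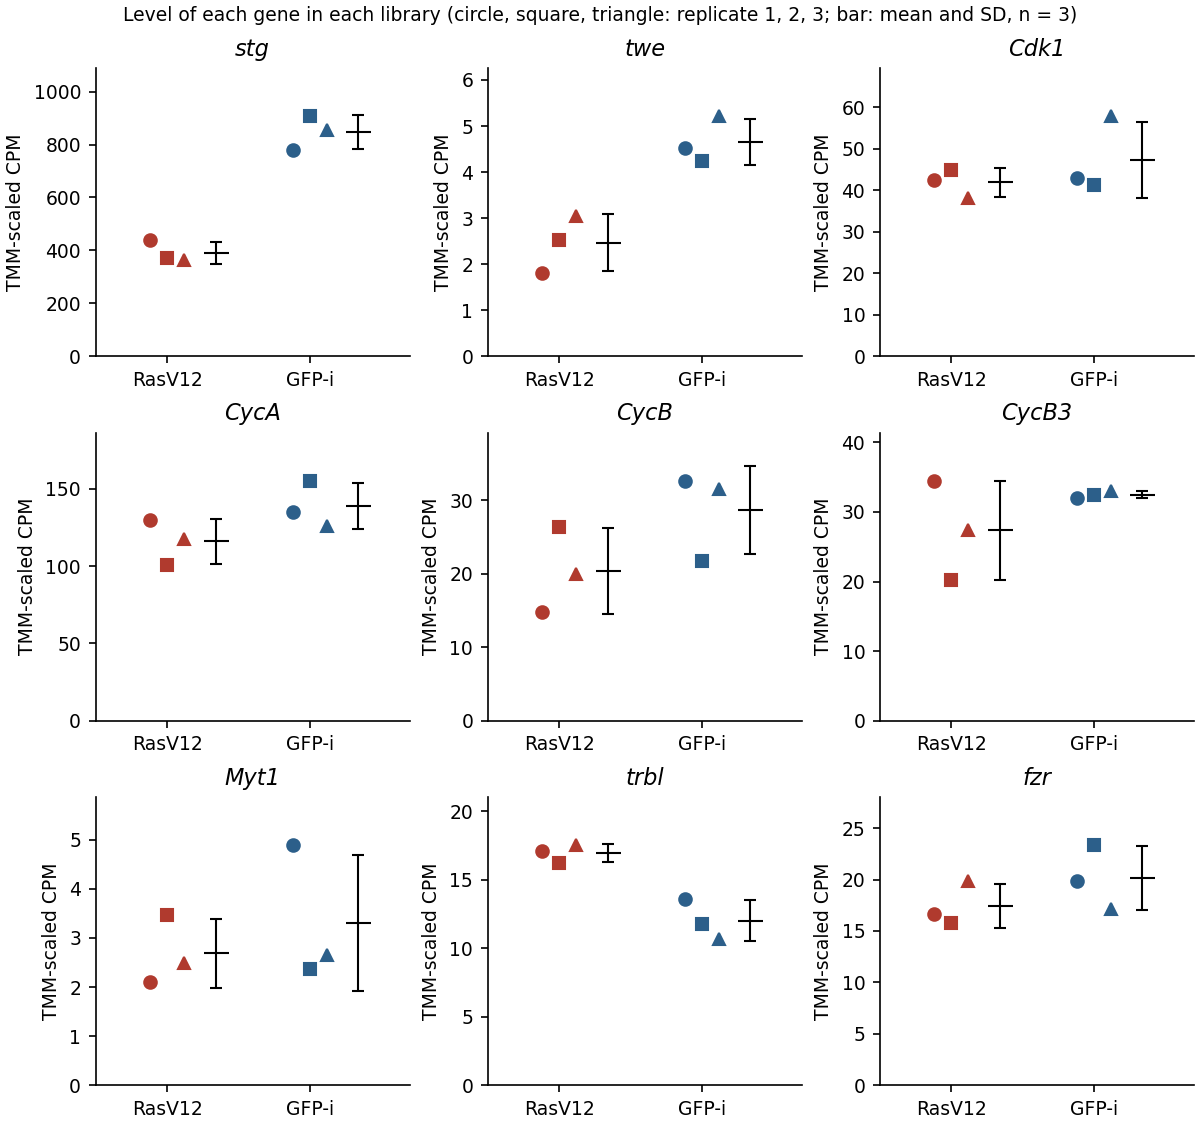
TMM-scaled CPM of the 9 genes in each library, one panel per gene with its own axis from 0, RasV12 in red on the left and GFP-i in blue on the right, with the mean and SD (n = 3). The stg panel shows 365 to 439.9 CPM in RasV12, against 778 to 907 CPM in GFP-i, while the points of both groups overlap for Cdk1, the 3 cyclins, Myt1 and fzr.

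Cdk1 and the mitotic cyclins, the partners that String acts on, did not pass the test. Cdk1 (FBgn0004106; 2L:10384739-10386262) stood at 42.5, 45.0 and 38.2 CPM in RasV12, against 43.0, 41.3 and 57.9 CPM in GFP-i. The groups overlapped, and the highest value belonged to GFP-i replicate 3. The log2 fold change was -0.18 with a 95% interval of -0.54 to 0.19 (edgeR adjusted p = 0.53), so a fall as large as that of stg lies outside the interval, while a fall to 68.6% of the GFP-i level lies at its edge.

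CycA, the cyclin needed for mitosis in fly somatic cells (FBgn0000404; 3L:11826719-11833578), stood at 129.9, 101 and 118 CPM in RasV12, against 135, 155 and 126 CPM in GFP-i. One RasV12 library, replicate 1, lay inside the GFP-i range. The log2 fold change was -0.26 (95% interval -0.58 to 0.061; edgeR adjusted p = 0.28). CycB, which works with CycA in mitosis (FBgn0000405; 2R:22803521-22806948), stood at 14.7, 26.3 and 20.0 CPM in RasV12, against 32.6, 21.7 and 31.5 CPM in GFP-i. GFP-i replicate 2 was low and RasV12 replicate 2 high, so that the groups crossed, and the log2 fold change of -0.49 (95% interval -1.03 to 0.040) did not pass (edgeR adjusted p = 0.21). CycB3, the third of the mitotic cyclins, which promotes anaphase (FBgn0015625; 3R:24867934-24870816), stood at 34.5, 20.2 and 27.4 CPM in RasV12, against 32.0, 32.5 and 33.0 CPM in GFP-i. The GFP-i libraries lay within 1.60% of their mean (SD), while the RasV12 libraries spread by 26.0%, on both sides of the GFP-i values. Its log2 fold change was -0.24 (95% interval -0.68 to 0.19; edgeR adjusted p = 0.46). Among RasV12 libraries, replicate 2 had the highest CycB and the lowest CycA and CycB3. A fall of the size of stg lies outside the intervals of CycA, CycB and CycB3, although the interval of CycB reaches close to it.

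The inhibitors of the switch differed in direction, and none passed. Tribbles (trbl, FBgn0028978; 3L:20396288-20401609) stood at 17.1, 16.2 and 17.5 CPM in RasV12, against 13.6, 11.8 and 10.7 CPM in GFP-i. All RasV12 libraries were higher, a lack of overlap that 18.6% of tested genes showed in this direction. The log2 fold change, 0.50 ± 0.17 (SE over 3 libraries per group, 95% interval 0.12 to 0.88), did not pass (edgeR adjusted p = 0.082). Over 17 alternatives, with edgeR, DESeq2 or limma-voom, its adjusted p ran from 0.058 to 0.34. Myt1, the membrane-bound Cdk1-inhibitory kinase (FBgn0040298; 3L:5777476-5779591), stood at 2.11, 3.47 and 2.49 CPM in RasV12, against 4.89, 2.36 and 2.64 CPM in GFP-i. The groups overlapped, GFP-i replicate 1 alone was high, and the log2 fold change of -0.30 (95% interval -1.12 to 0.53; edgeR adjusted p = 0.65) was 0.043 without that library. With 29 to 65 counts per library the interval is wide, and a fall as large as that of stg (-1.11) still lies within it. The APC/C activator fzr (FBgn0262699; X:4667290-4679537) stood at 16.6, 15.7 and 19.8 CPM in RasV12, against 19.9, 23.3 and 17.1 CPM in GFP-i, with overlapping groups. Its log2 fold change was -0.21 (95% interval -0.61 to 0.19; edgeR adjusted p = 0.50). Besides twe, CycA alone of the 9 overlaps another gene in the table, the low-count CG7264, and shares no exonic base with it. The authors' deposited table called none of the other 8 genes, with twe at an adjusted p of 0.066 and trbl at 0.14. Over all its genes it called 446 higher and 252 lower, by a rule not stated here, with 4365 lacking an adjusted p.

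**Figure D2:**
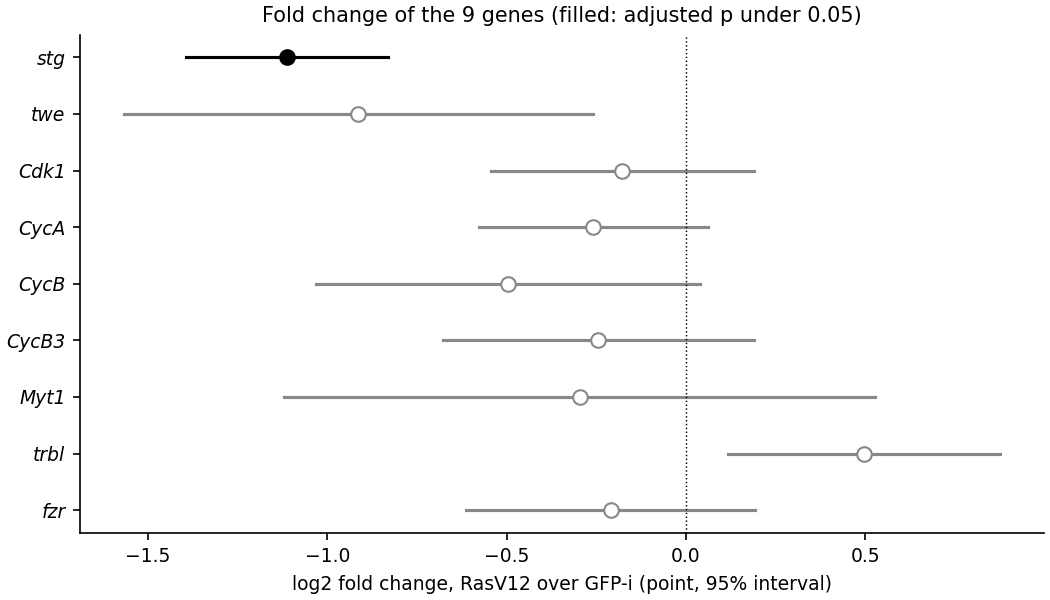
Log2 fold change of RasV12 over GFP-i for the 9 genes with 95% intervals from the edgeR fit; filled points passed the test. The interval of stg ends at -0.83, those of twe and trbl exclude 0 without passing after adjustment, and those of the other 6 genes include 0.

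Counts of stg were also set against those of another gene within the same library, a quantity that does not depend on how libraries are scaled to each other. Per count of Cdk1 there were 10.3, 8.24 and 9.55 counts of stg in RasV12 replicates 1, 2 and 3, against 18.1, 22.0 and 14.8 in the GFP-i replicates. The RasV12 ratios were all lower, by -0.95 on the log2 scale, to 0.517 of the GFP-i ratio. Per count of CycA there were 3.39, 3.68 and 3.10 counts of stg in RasV12 and 5.76, 5.84 and 6.78 in GFP-i, again without overlap, and per count of CycB3 there were 12.8, 18.3 and 13.3 in RasV12 and 24.3, 27.9 and 25.9 in GFP-i. For CycB the groups overlapped, with 29.9, 14.1 and 18.3 in RasV12 and 23.8, 41.7 and 27.2 in GFP-i. The widest gap was against trbl, with 25.7, 22.8 and 20.8 counts of stg per count of trbl in RasV12 and 57.1, 77.0 and 80.3 in GFP-i, a ratio of 0.326. In an exact two-sided permutation test over the libraries the 4 ratios without overlap each gave p = 0.1, the smallest that 3 against 3 libraries allow, and CycB gave p = 0.3 (0.125 and 0.3 after Benjamini-Hochberg adjustment over the 5 ratios). This design cannot reach 0.05. All 5 ratios share the stg counts and are not independent of each other.

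**Figure D3:**
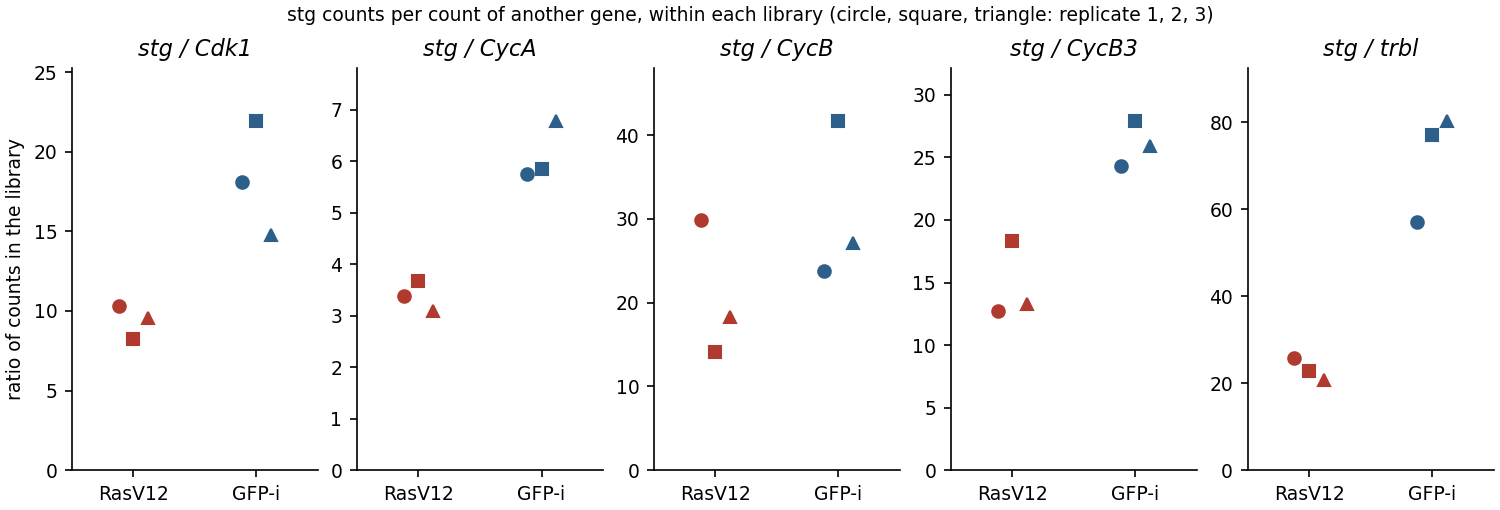
Counts of stg divided by counts of Cdk1, CycA, CycB, CycB3 or trbl in each library, on axes that start at 0, RasV12 on the left and GFP-i on the right. The groups are apart for Cdk1, CycA, CycB3 and trbl and overlap for CycB.

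Other genes around the switch were read from 6 lists with 51 tested genes. The lists held Cdk1 partners and kinases, mitotic entry kinases and phosphatases, and the APC/C and its regulators. They also held APC/C substrates with separase complex genes, the checkpoint that restrains Cdc25, and G1 to S genes. Of the 51 genes 5 were lower (9.80%), beside 5.68% of all tested genes, 1 was higher (1.96%), beside 9.15%, and 45 did not pass. These counts turned on scaling and on single libraries: with scaling by library size only 10 were lower and none higher, while 1 was lower and none higher without GFP-i replicate 3 and with the replicate block. Leaving out RasV12 replicate 1, RasV12 replicate 3 or GFP-i replicate 1 left 3, 3 and 2 of them, all lower. The median log2 fold change was -0.051, against 0.017 over all tested genes.

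In the checkpoint list 3 of 8 genes fell and none rose, beside 5.68% of all tested genes lower and 9.15% higher. The fold change was negative for 4 of the 8, and the list median was -0.088 on the log2 scale. 14-3-3zeta, a phosphoprotein-binding adaptor that acts in Raf signalling and whose relatives hold Cdc25 inactive in vertebrates, stood at 948, 873 and 951 CPM in RasV12, against 1771, 1929 and 2289.9 CPM in GFP-i. All 3 RasV12 libraries were lower, and the log2 fold change of -1.11 ± 0.13 (SE, n = 3; edgeR adjusted p = 3.3e-04) was of the same size as that of stg. Claspin, which helps activate the checkpoint kinase Chk1, fell by 0.86 ± 0.19 (log2, SE; edgeR adjusted p = 0.015), at 8.49, 12.4 and 12.5 CPM in RasV12, against 19.2, 20.0 and 21.3 CPM in GFP-i. grp, the gene of Chk1 itself, fell by 0.48 ± 0.13 (edgeR adjusted p = 0.038). The Claspin call was lost without RasV12 replicate 1 or GFP-i replicate 3 (edgeR adjusted p = 0.051 and 0.070). That of grp ended when GFP-i replicate 1, GFP-i replicate 3 or RasV12 replicate 3 was left out (edgeR adjusted p = 0.0799, 0.0892 and 0.116). The other checkpoint genes lok, mei-41, tefu, mus304 and 14-3-3epsilon did not pass.

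Among the kinases and phosphatases of mitotic entry 1 of 10 fell and none rose, beside 5.68% of all tested genes lower and 9.15% higher. endos, whose product inhibits the phosphatase PP2A once the Greatwall kinase has phosphorylated it, stood at 81.5, 70.4 and 87.7 CPM in RasV12, against 109, 121 and 103 CPM in GFP-i (log2 fold change -0.48 ± 0.14, SE, n = 3; edgeR adjusted p = 0.042). Leaving out any single library other than RasV12 replicate 3 ended this call (edgeR adjusted p = 0.060 to 0.104). bora, an activator of Aurora A, stood at -0.70 (edgeR adjusted p = 0.12) and passed without RasV12 replicate 2 (edgeR adjusted p = 0.046). Of the 6 Cdk1 partners and kinases none passed, with CycH, a subunit of the Cdk-activating kinase, at 0.20 and Wee1, the nuclear inhibitory kinase, at -0.19. No list member reached an unadjusted p under 0.05 there, and no alternative listed changed the call of CycH or Wee1. Wee1 overlaps Rat1 on the other strand at its 3' end, with nearly equal counts.

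Of 13 tested APC/C genes 1 rose and none fell, beside 9.15% of all tested genes higher and 5.68% lower. The gene that rose was cort, an APC/C activator known from female meiosis. It stood at 5.01, 6.19 and 4.85 CPM in RasV12, against 3.54, 2.06 and 2.57 CPM in GFP-i. Its log2 fold change of 0.97 ± 0.29 only just passed (SE; edgeR adjusted p = 0.0498), and the call was lost without any one of the 6 libraries (edgeR adjusted p = 0.053 to 0.20) and with other scalings, DESeq2, no filter or the replicate block. vih, the ubiquitin-conjugating enzyme of the APC/C, stood at -0.42 (edgeR adjusted p = 0.11) and passed with scaling by library size only (edgeR adjusted p = 0.036). A list of 4 genes held the APC/C substrates pim and geminin and the separase complex genes Sse and thr. In it geminin, the inhibitor of replication licensing, fell to 51.2, 44.8 and 39.7 CPM in RasV12, against 65.8, 62.5 and 66.0 CPM in GFP-i. This was a log2 fold change of -0.52 ± 0.14 (SE, n = 3; edgeR adjusted p = 0.031), and the call ended when GFP-i replicate 1, GFP-i replicate 3 or RasV12 replicate 3 was left out (edgeR adjusted p = 0.0609, 0.0849 and 0.0977). The securin gene pim, whose product restrains separase until anaphase, stood at 0.55 (edgeR adjusted p = 0.058) and passed with a filter of 10 CPM in 3 libraries (edgeR adjusted p = 0.038). None of the 10 G1 to S genes passed, while 5 had an unadjusted p under 0.05, beside 28.3% of all tested genes. The lowest p values belonged to E2f1, at 0.35, and to its partner Dp, at -0.44 (edgeR adjusted p = 0.063 and 0.073). E2f1 passed without RasV12 replicate 2 and with the filter of 10 CPM (edgeR adjusted p = 0.026 and 0.046). With scaling by library size only 3 of the 10 passed, Dp among them (edgeR adjusted p = 0.019). Dp also passed with no filter and without ribosomal RNA and mitochondrial rows (edgeR adjusted p = 0.044 and 0.038), and with DESeq2 (adjusted p = 0.039).

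**Figure D4:**
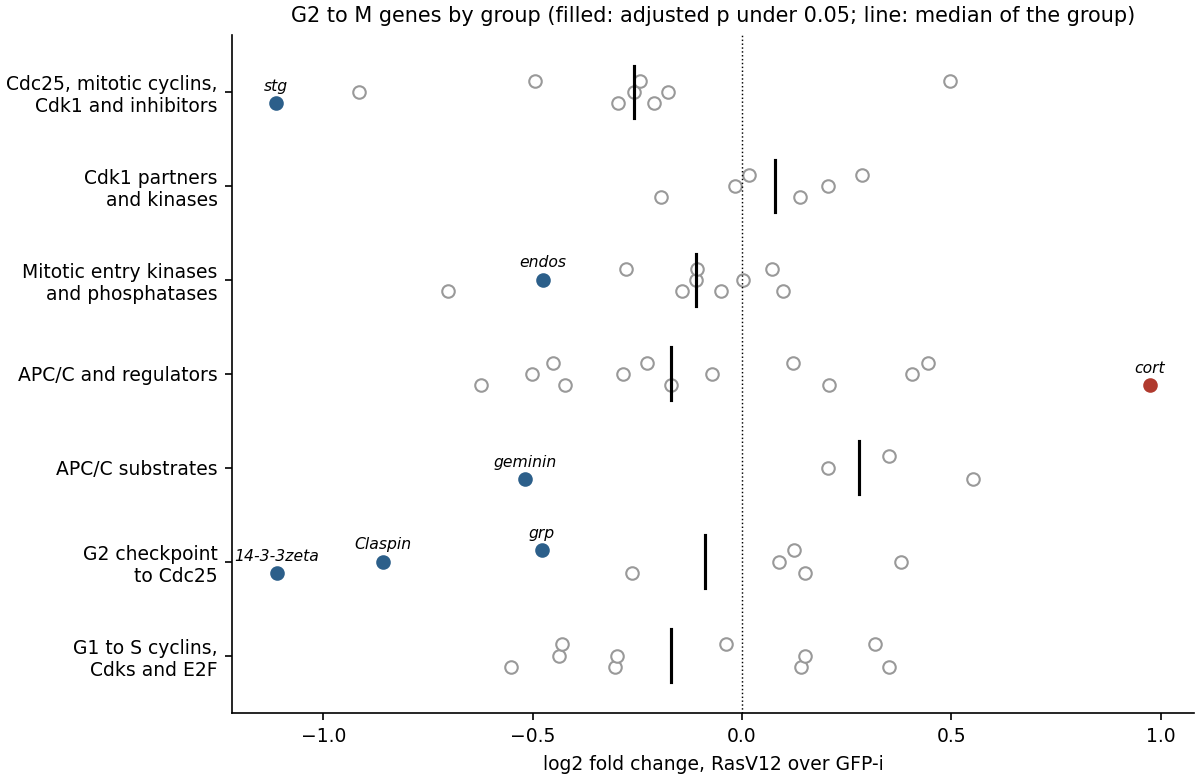
Log2 fold change of RasV12 over GFP-i for each tested gene among the 9 and the 6 lists around the switch, without the genes upstream of stg, grouped by role, with the median of each group as a vertical line and genes that passed the test filled and named. Among the genes plotted stg and 14-3-3zeta lie furthest to the left, both at -1.11, and cort at 0.97 lies furthest to the right.

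Of 6 genes reported to act upstream of stg in imaginal discs 4 rose, 1 fell and 1 did not pass, beside 9.15% of all tested genes higher and 5.68% lower. The list was chosen with earlier results of these data known. pnt, the ETS factor through which Egfr signalling promotes stg transcription in the eye disc, stood at 1294, 1219.8 and 1271 CPM in RasV12, against 53.7, 69.3 and 65.6 CPM in GFP-i, which is 4.33 ± 0.14 on the log2 scale (SE, n = 3; edgeR adjusted p = 1.5e-07). ttk, a repressor of stg in the eye disc, rose by 0.56 ± 0.12 (edgeR adjusted p = 0.012). It no longer passed when GFP-i replicate 1 or 3 was left out (edgeR adjusted p = 0.068 and 0.088) or with scaling by library size only (edgeR adjusted p = 0.055). At the wing margin wg, acting through ac and sc, keeps stg low in anterior cells. wg stood at 3.34, 2.91 and 4.85 CPM in RasV12, against 18.7, 23.5 and 20.2 CPM in GFP-i, which is -2.48 ± 0.23 on the log2 scale (SE; edgeR adjusted p = 8.7e-05). By contrast ac rose by 2.34 ± 0.38 and sc by 1.52 ± 0.26 (SE; edgeR adjusted p = 0.0036 and 0.0032), and all RasV12 libraries were higher for both. ac and sc lie within CG32816 on the other strand, which has more counts than either, and share no exonic base with it. The sixth gene, E2f1, is given above. Whether any of these genes bears on the level of stg was not tested.

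The pattern of stg over the 6 libraries was compared with that of 4984 tested genes of at least 10 CPM, by the root mean square difference of log2 CPM centred on each gene's mean. The 5 closest were the tetraspanin gene Tsp74F (0.0898), the homeobox gene inv (0.101), CG17672 (0.113), the chromatin assembly gene Caf1-180 (0.114) and the importin gene Fs(2)Ket (0.118). Tsp74F stood at 63.2, 52.8 and 50.2 CPM in RasV12, against 102, 118 and 103 CPM in GFP-i, with RasV12 replicate 1 and GFP-i replicate 2 the highest of their groups, as for stg. The log2 fold changes of the 5 genes lay between -1.25 and -0.91. This likeness is mostly the difference between the groups and is given as a description.

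Markers of other cell types and of the disc epithelium itself moved in part with the groups. Of 6 muscle precursor markers 3 passed as lower in RasV12, htl, Him and zfh1, beside 5.68% of all tested genes, and none passed as higher. The fold change was negative for 5 of the 6. Mef2 went the other way without passing, at 46.8 to 53.8 CPM in RasV12, against 35.1 to 42.6 CPM in GFP-i (edgeR adjusted p = 0.15). The summed level of the 6, in which Mef2 weighs most, was 60.0 to 76.4 CPM in RasV12, against 76.8 to 117 CPM in GFP-i. None was at 0, and the htl call was lost in 1 of 16 alternatives. Of the 6 haemocyte markers found only Pxn and srp had enough counts to test and neither passed, at a sum of 8.06 to 9.84 CPM in RasV12, against 6.92 to 16.2 CPM in GFP-i, and the defining markers eater and He did not exceed 3 counts in any library. Hml reached 14 counts in RasV12 and 12 in GFP-i, and Nplp2 reached 5 counts in each. Among 4 tracheal markers btl rose and dysf (older symbol dys) fell. The others, trh and pio, stood lower without passing (edgeR adjusted p = 0.061 and 0.076). The sum of the 4 was 361 to 396 CPM in RasV12, against 431 to 529 CPM in GFP-i. Most of that sum was pio, at 297 to 316 CPM in RasV12, against 344 to 434 CPM in GFP-i. Of 5 neuron and glia markers 1 passed, brp, which fell, and 4 of the 5 fold changes were negative. elav went the other way without passing, at 39.1 to 48.0 CPM in RasV12, against 27.9 to 33.2 CPM in GFP-i (edgeR adjusted p = 0.061). It passed in 2 of 17 alternatives and weighs most in the RasV12 sum. The sum of the 5 was 69.4 to 85.7 CPM in RasV12, against 69.4 to 102 CPM in GFP-i. Of 6 epithelial and dorsal disc markers nub and vg fell and Dr and shg rose, beside 5.68% of all tested genes lower and 9.15% higher. nub stood at 11.9 to 13.3 CPM in RasV12, against 144 to 158 CPM in GFP-i, a log2 fold change of -3.58 (edgeR adjusted p = 3.1e-07). The log2 fold changes of vg, Dr and shg were -1.45, 0.87 and 0.66. The sum of the 6 was 688 to 844 CPM in RasV12, against 788 to 949 CPM in GFP-i. The shg call was lost without any one library but RasV12 replicate 2 or GFP-i replicate 2. zfh1 did not pass once RasV12 replicate 1 was left out (edgeR adjusted p = 0.0716), nor without GFP-i replicates 2 or 3 in turn (edgeR adjusted p = 0.0574 and 0.0717), and brp did not pass without GFP-i replicate 2 (edgeR adjusted p = 0.0506). The part of these cells in the level of stg was not tested. With RasV12 replicate 3 and GFP-i replicate 2 both left out, the libraries at one end of the second component, stg stood at -1.05 and passed (edgeR adjusted p = 0.0079). With the libraries at the other end left out, a choice made after seeing the data, it stood at -1.13 and passed as well.

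**Figure D5:**
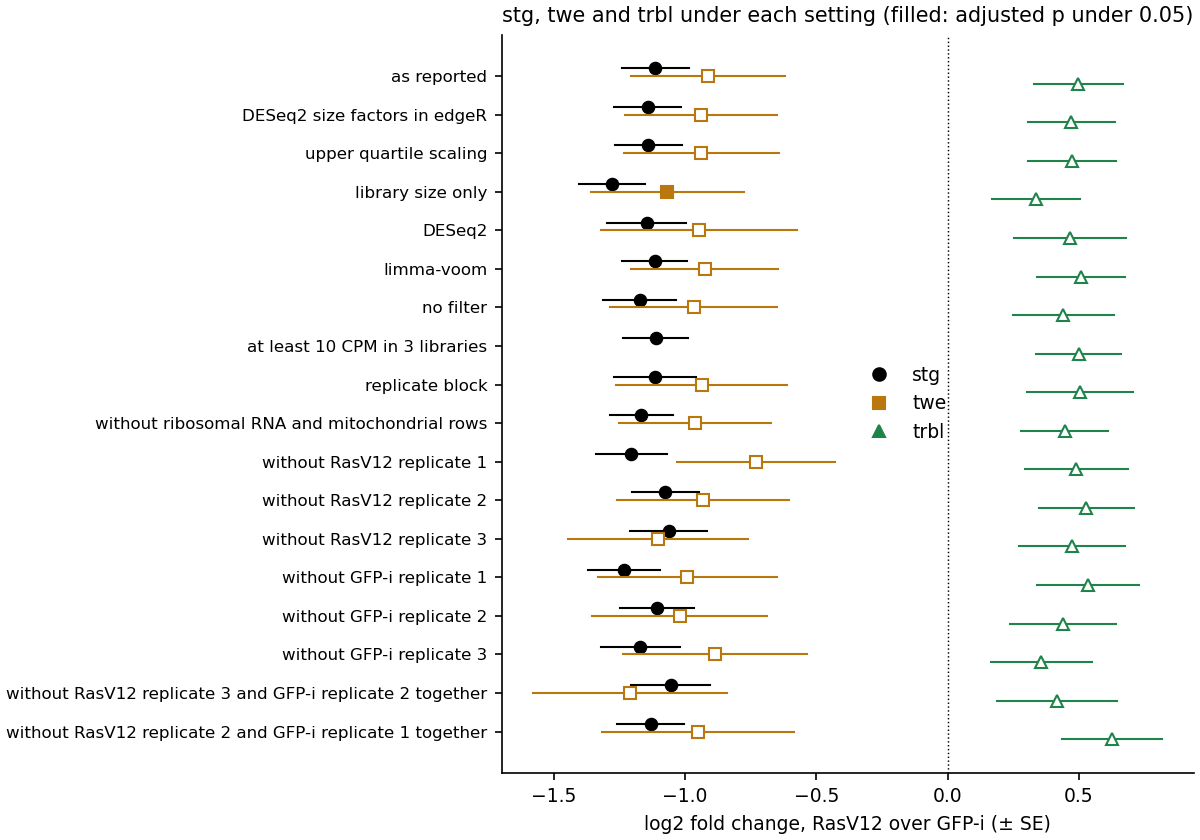
Log2 fold change of RasV12 over GFP-i with its SE for stg, twe and trbl as reported and under each alternative; filled symbols passed the test. stg is filled throughout and runs from -1.28 to -1.05, twe is filled with scaling by library size only, trbl is open throughout, and twe has no value with the filter of 10 CPM.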

How the data were processed

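A single table deposited by the authors holds a raw count of reads for each gene in each of the 6 libraries, in whole numbers without normalization, as its values show. Read trimming, alignment and comparison used Trimmomatic 0.33, STAR 2.3.0e, bedtools 2.17 and DESeq2 on dm6, per the submitters' processing notes; the sources used here do not give the program or strand setting that assigned reads to genes. Per the file headers, the deposited baseMean is a signal, the mean of size-factor-scaled counts. Per the file headers, the deposited log2 fold changes come shrunken and unshrunken with an error, and the deposited statistic is a score. A p-value and its adjusted form, both deposited by the authors, stand beside a column of calls. Gene names came from the table or the supplied symbol table, and coordinates are the table's. Of 14018 shared genes 98.5% had the same coordinates in the Ensembl annotation of the BDGP6 assembly. Transcripts and UTR lengths were taken from that annotation.

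The fit used edgeR 4.0.16 in R 4.3.3 (TMM, filterByExpr, robust quasi-likelihood F test, two-sided), which left out 5099 genes. Standard errors and 95% intervals derive from the F statistic. Alternatives used DESeq2 1.42.0, limma 3.58.1 (voom), other scalings and filters, the replicate block and left-out libraries. No libraries agreed within sampling noise. Counting error covers reads without molecular identifiers only. The 9 genes, the lists and the tests were chosen with earlier results of these data known. Named genes were all 9, the 2 with the lowest p of each other list, those that passed where 5 or fewer did, and all reported upstream of stg; other genes are named only as list members, markers or overlapping genes. Protein and promoter sequences were not used here.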

Additional observations from a re-analysis of the deposited data

How the results depend on the processing

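stg kept its direction and its call under all 17 alternatives, from -1.28 to -1.05. Cdk1, CycA, CycB, CycB3, trbl and fzr kept their direction and stayed short of the threshold under the same alternatives. With scaling by library size only 2 of the 9 genes passed, since twe passed at -1.07. With 1 library left out Myt1 ran from -0.54 to 0.043, positive without GFP-i replicate 1, and the haemocyte marker Pxn from -1.44 to 0.028, positive without GFP-i replicate 2; the cause was not tested. twe, Myt1 and other low genes have no value with the filter of 10 CPM. Over all genes 1355 changed, 741 to 1521 without 1 library, 701 with the replicate block, 674 at an adjusted p under 0.01, and 678 with RasV12 replicate 3 and GFP-i replicate 2 both left out. In the lists around the 9 genes, those upstream of stg included, 11 of 56 changed (19.6%, beside 14.8% of all tested genes), 5 higher and 6 lower. There were 14 with scaling by library size only, 3 higher and 11 lower, 5 to 12 without 1 library, 5 with the replicate block, 5 with RasV12 replicate 3 and GFP-i replicate 2 both left out, and 7 with RasV12 replicate 2 and GFP-i replicate 1 both left out, a choice made after seeing the data. Same-numbered libraries of the 2 groups did not deviate together (correlations of -0.047, -0.43 and -0.14), and no library correlated best with its own number. The highest values were 0.58 for RasV12 replicate 3 with GFP-i replicate 2 and 0.45 for RasV12 replicate 2 with GFP-i replicate 1. Whether any libraries were handled as pairs is not in the labels, and these correlations cannot show it. The replicate block put stg at -1.12 and changed no call among the 9 genes, while endos, cort, geminin, Claspin, grp, ttk, shg, zfh1 and brp lost theirs. Depth limits twe and Myt1, whose lowest libraries held 25 and 29 counts.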
